A study of Mus musculus with 11 samples.

Results

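The genes described here encode the receptors, transcription factors and feedback inhibitors through which interleukin-6 (IL-6), its relative oncostatin M and interleukin-1 (IL-1) act on the liver. They are Il6ra, Il6st, Osmr, Il1r1, Stat3, Nfkb1, Cebpb, Cebpd, Socs3 and Nfkbia, chosen by symbol as genes upstream of the acute phase response, and all 10 had a row among the 13636 rows of the gene table. The values come from RNA sequencing of mouse liver. The animals were male C57BL/6J mice, an inbred strain in wide laboratory use, whose Western diet began when they were 8 weeks old and whose injections started a month later and lasted 6 weeks. The mimic group (n = 4) was given a mimic of the microRNA miR-30c at a dose that rose in steps, first 2.5 mg/kg, next 5.0 mg/kg and last 7.5 mg/kg, the scramble group (n = 3) a scramble oligomer at the same rising doses, and the PBS group (n = 4) PBS alone, so that the diet and the injections were common to all 3 groups. The carrier of the oligomers is not given in the sources used here. Nothing in the labels says whether the numbered libraries of a group are different mice. The p-values therefore reflect variation between libraries, which may be technical.

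As background, IL-6 binds its receptor, the product of Il6ra, and the complex then engages gp130, the signal-transducing chain encoded by Il6st, while oncostatin M uses gp130 together with the product of Osmr. Kinases bound to gp130 phosphorylate STAT3, which acts with the C/EBP factors on acute phase genes of hepatocytes and also on Socs3, whose product shuts down gp130. IL-1 acts through Il1r1 and the adaptor MyD88 on NF-kB, which is held in the cytoplasm by its inhibitor IkBa, the product of Nfkbia and itself an NF-kB target. Much of this control works through phosphorylation, degradation and movement of proteins, which RNA levels do not record.

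The mature sequence of miR-30c-5p is shown first, since the mimic carries its name; the capitals mark the seed, bases 2 to 8, and the sequence is that of RefSeq on GRCm38.p6, where it lies on the plus strand at chr1:23291714-23291736 and on the minus strand at chr4:120769584-120769606.
miR-30c-5p: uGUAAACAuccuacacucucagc
The DNA letters TGTTTAC, which pair with that seed, were found in the longest annotated 3′ UTR (GENCODE M21) of 1834 of 11456 genes of the table, or 16%. Among the 10 genes they occurred in the 3′ UTRs of 3, namely Osmr, Stat3 and Socs3, and each occurrence is printed here in its surroundings with the matching letters in capitals, because these are the members whose own transcript holds a match.
Osmr site: tgcagatgctcTGTTTACattttcttgtc
Stat3 site 1: tccctgggtttTGTTTACccagtatgctt
Stat3 site 2: ttcaaaaacacTGTTTACataaatgttga
Socs3 site: gttttgaataaTGTTTACaatttgcctca
The Osmr site, the second Stat3 site and the Socs3 site are followed by an A, which makes an 8-base match of a kind found in 8.18% of the 3′ UTRs. None of the 3 genes passed the test as lower in the mimic group, and Osmr was higher there, as given below with the values. A letter match is a description and was not tested for binding.

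Counted reads per library were between 39705157 and 60399018 in the mimic group, between 74519792 and 88869950 in the scramble group and between 62848115 and 101380174 in the PBS group. Values are scaled CPM, that is, read counts relative to the library's total, with a further factor per library set by the authors, and log2 changes are differences of mean log2(scaled CPM + 1), which understate the change of genes with low values. The factors matter for direction. With library totals alone the median of all genes moved up by 0.49 on the log2 scale in mimic against scramble and by 0.51 in mimic against PBS, so every higher or lower below is relative to the bulk of genes under the authors' scaling. Mimic libraries 1 and 4 stood apart from mimic libraries 2 and 3 in acute phase output, with 2.61% and 2.05% of counted reads in the 4 Saa genes, against 0.699% and 0.720%. Hepatocyte markers were measured for 8 of 8 listed genes, with sums from 28837 to 35995 scaled CPM in the mimic group, from 39369 to 44035 in the scramble group and from 38704 to 43907 in the PBS group, so the labelled tissue was borne out in every library.

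The scramble group controls for giving an oligomer at all, so mimic against scramble is the comparison for the miR-30c sequence. Of the 10 genes, Osmr rose, Il6st and Cebpb fell, and the other 7 did not pass an adjusted p of 0.05 with limma. In all, 32% of the 13636 genes passed, made up of 17.3% higher and 14.7% lower, so 3 of 10 is close to the share among all genes. At an unadjusted p of 0.05 the counts were 4 of the 10 genes and 44.1% of all genes. The median log2 change of the 10 genes was -0.15 and that of all genes 0.00. Sizes were modest, with a median absolute log2 change of 0.31 over the 10 genes and 0.21 over all genes. The count of 3 dropped to 1, Il6st, without mimic library 4 and again without scramble library 2, and to 1 with mimic libraries 2 and 3 alone.

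Set against PBS, the mimic group had 2 of the 10 genes past the threshold, Osmr higher and Il6st lower, where 37.1% of all genes passed (20% higher and 17.1% lower). An unadjusted p of 0.05 was met by the same number, 2 of 10, and by 47.3% of all genes. The median log2 change of the 10 genes was 0.03. The count was 1, Osmr, without PBS library 4, and 0 with mimic libraries 2 and 3 alone. Both comparisons share the mimic libraries, so their values stand side by side here and the second is no independent repeat of the first. In scramble against PBS 0 of the 10 genes passed with limma, as did 0% of all genes; at an unadjusted p under 0.05 the counts were 1 of the 10 genes, Cebpb, and 434 of all genes (3.18%).

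**Figure D1:**
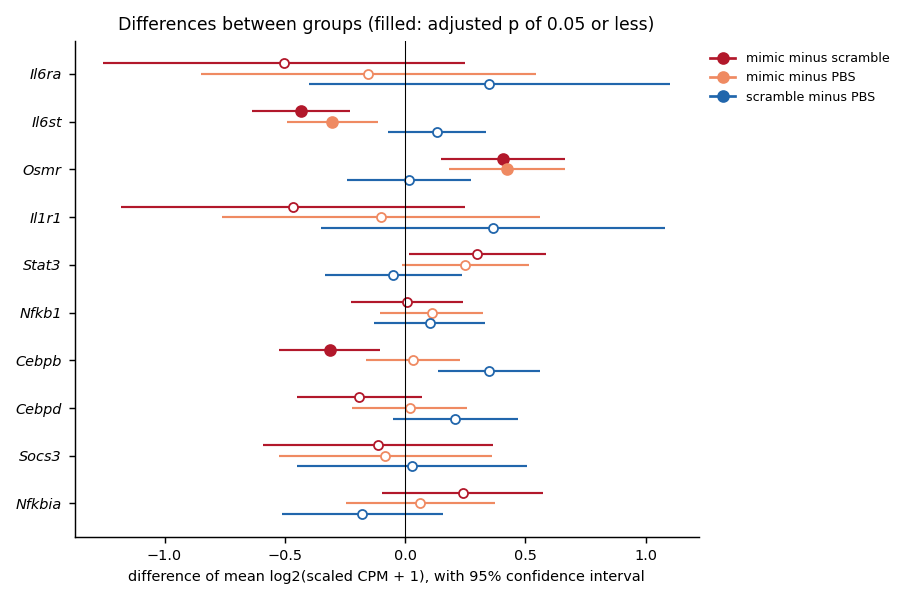
Differences of mean log2(scaled CPM + 1) for each of the 10 genes (rows) in mimic minus scramble, mimic minus PBS and scramble minus PBS; bars are 95% confidence intervals and filled points passed an adjusted p of 0.05 with limma. Il6st lay below 0 at -0.43 and -0.30 and Osmr above 0 at 0.41 and 0.42 in both mimic comparisons, Cebpb was filled at -0.31 in mimic minus scramble alone, and the intervals of Il6ra and Il1r1 were the widest.

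Among the receptors, Il6st (ENSMUSG00000021756, chromosome 13, 112464070 to 112510086, plus strand, GRCm38), the chain shared by most receptors of the IL-6 family, was lower in the mimic group. It had 35.7, 40.4, 34.6 and 35.6 scaled CPM in the mimic libraries, against 53.8, 44.2 and 51.6 in the scramble libraries and 46.6, 42.4, 42.1 and 50.3 in the PBS libraries. All 4 mimic libraries lay below all 7 others. Over all genes, 40.8% had groups that did not overlap in mimic against scramble and 31.7% in mimic against PBS, and 19.2% and 14.5% were lower without overlap. The means were 36.6 ± 2.62 with the mimic (SD, n = 4), 49.9 ± 5.03 with scramble (n = 3) and 45.4 ± 3.87 with PBS (n = 4). The log2 change was -0.43 ± 0.09 (SE; 95% confidence interval -0.64 to -0.23; limma adjusted p = 0.00537) against scramble and -0.30 ± 0.09 (-0.49 to -0.11; limma adjusted p = 0.0187) against PBS. Under library totals alone the sign turned, to 0.14 against scramble and 0.29 against PBS, neither of them past the threshold, so the fall of Il6st was a fall relative to the bulk of genes.

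Osmr (ENSMUSG00000022146, chromosome 15, 6813577 to 6874969, minus strand), the oncostatin M receptor chain that pairs with gp130, was higher in the mimic group. Its level was 1.95, 1.82, 2.21 and 2.38 scaled CPM in the mimic libraries, against 1.56, 0.977 and 1.48 in the scramble libraries and 1.40, 1.49, 0.950 and 1.39 in the PBS libraries. The 4 mimic libraries lay above all 7 others, as 21.6% of all genes did against scramble and 17.2% against PBS. Mean levels were 2.09 ± 0.254 with the mimic (SD, n = 4), 1.34 ± 0.316 with scramble (n = 3) and 1.31 ± 0.243 with PBS (n = 4), a ratio of means of 1.56 against scramble and 1.60 against PBS. Its log2 change was 0.41 ± 0.12 (SE; 0.15 to 0.67; limma adjusted p = 0.0224) against scramble and 0.42 ± 0.11 (0.18 to 0.66; limma adjusted p = 0.0117) against PBS. These levels rest on 64 to 209 reads per library, the fewest of the 10 genes. The call against scramble was lost without mimic library 4 (limma adjusted p = 0.0604) and without scramble library 2 (limma adjusted p = 0.0955), and kept its direction under library totals alone, at 0.80.

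Markers of several other cell types of the liver differed between the groups, some in the direction of Osmr and some not. Of all genes, 17.3% were higher and 14.7% lower in mimic against scramble, and 20% and 17.1% in mimic against PBS. In mimic against scramble, 7 of 9 markers of stellate cells and fibroblasts were higher and 0 lower, with sums from 178 to 352 scaled CPM in the mimic group, from 70.3 to 78.0 in the scramble group and from 49.6 to 82.0 in the PBS group. Of the genes whose mean reached 1 (unnamed gene models left out), the 3 whose log2 values ran most like those of Osmr over the 11 libraries were Traf3ip2 (r = 0.934), which encodes an adaptor of the IL-17 receptor, Lum (r = 0.932), a proteoglycan of fibroblasts, and Pdgfrb (r = 0.925), a receptor of stellate cells and pericytes. Lum and Pdgfrb are in that marker list. All these points share the split between mimic and other libraries, so r is given as a description. Markers of recruited macrophages and monocytes were higher for 10 of 11, with sums from 146 to 235 scaled CPM with the mimic, 23.3 to 33.7 with scramble and 20.2 to 60.8 with PBS. Neutrophil markers were higher for 5 of the 5 measured of 8 listed. Their sums ran from 16.2 to 35.6, 1.17 to 1.77 and 1.65 to 2.66 in the same order of groups. The gene table appears limited to genes above a minimum level in some libraries. Markers this low outside the mimic group may have a row only through that group, so 5 of 5 is no test. The same may hold for low markers of the other lists. Kupffer cell markers were lower for 6 of 8, with sums from 118 to 177, 190 to 371 and 263 to 358. Under library totals alone 4 of these 8 were lower and 1 higher against scramble. Of 8 endothelial markers 1 was higher and 2 lower against scramble, and 0 higher and 5 lower against PBS, with sums from 52.0 to 85.6, 82.8 to 104 and 80.1 to 108. Under library totals alone 1 endothelial marker was higher and 0 lower against scramble, and 2 higher and 0 lower against PBS. The 5 lower became 2 without mimic library 1 or 4 or PBS library 1, 3 or 4. Of 5 bile duct markers 2 were measured, of which 1 was higher against scramble and 2 against PBS. Their sums ran from 35.4 to 42.5 with the mimic, 13.5 to 22.8 with scramble and 11.7 to 20.6 with PBS. Of 9 listed lymphocyte markers 0 were measured. No measured marker was at 0 in every library of a group. The part of these cells in the value of Osmr, or of any gene given here, was not tested. In whole-liver RNA, fewer cells of a type and less RNA per cell cannot be told apart.

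Il6ra (ENSMUSG00000027947, chromosome 3, 89864059 to 89913196, minus strand) encodes the receptor chain that binds IL-6 itself, and it varied more between libraries than between groups. Levels were 7.39, 20.2, 14.2 and 8.09 scaled CPM in the mimic libraries, against 16.1, 10.5 and 27.4 in the scramble libraries and 13.98, 9.40, 14.3 and 14.8 in the PBS libraries. The groups overlapped throughout, and the coefficient of variation was 48.0% with the mimic, 47.8% with scramble and 19.1% with PBS. This came to a log2 change of -0.50 ± 0.34 (SE; -1.26 to 0.25; limma adjusted p = 0.277) against scramble and -0.15 ± 0.32 (-0.85 to 0.54; limma adjusted p = 0.731) against PBS. Mimic libraries 1 and 4, which had the most Saa1, had the lowest Il6ra of all 11 libraries. With mimic libraries 2 and 3 alone the log2 change was 0.02 against scramble, a turn in sign.

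Il1r1 (ENSMUSG00000026072, chromosome 1, 40225080 to 40317257, plus strand), the signalling receptor of IL-1, gave 34.8, 20.8, 31.2 and 28.2 scaled CPM in the mimic libraries, against 50.3, 22.7 and 53.5 in the scramble libraries and 33.6, 17.9, 30.7 and 45.9 in the PBS libraries. Library 2 was the lowest in each of the 3 groups, and the groups overlapped. The fitted log2 change was -0.47 ± 0.33 (SE; -1.18 to 0.25; limma adjusted p = 0.290) against scramble and -0.10 ± 0.30 (-0.76 to 0.56; limma adjusted p = 0.817) against PBS. These intervals allow a fall of Il1r1 as well as no change.

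**Figure D2:**
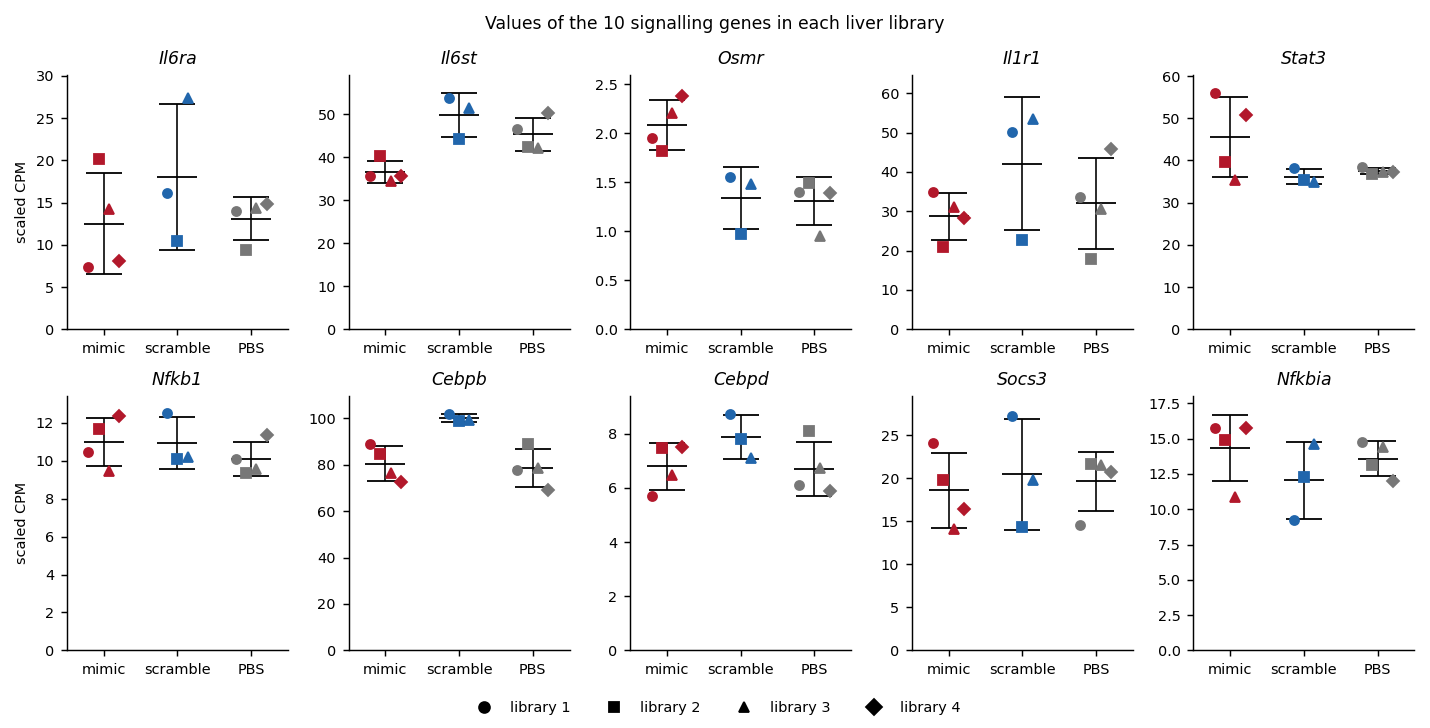
Level of each of the 10 genes in scaled CPM (linear axes from 0) in the mimic, scramble and PBS libraries; symbols mark library numbers, the long bar is the mean and the whiskers are 1 SD. Il6st and Osmr separated the 4 mimic libraries from all 7 others, Stat3 was high in mimic libraries 1 and 4, and Cebpb was high in the 3 scramble libraries.

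The balance of the receptor chains within a library does not depend on how libraries were scaled, so it was described as a log2 ratio with no test. Osmr over Il6st averaged -4.14 ± 0.26 with the mimic (SD, n = 4), -5.24 ± 0.22 with scramble (n = 3) and -5.13 ± 0.27 with PBS (n = 4). The mimic libraries ran from -4.48 to -3.90, the scramble libraries from -5.50 to -5.11 and the PBS libraries from -5.47 to -4.83. All 4 mimic libraries thus lay above all 7 others, with a difference of 1.11 against scramble and 0.999 against PBS. Il6ra over Il6st averaged -1.67 ± 0.63 with the mimic, -1.57 ± 0.60 with scramble and -1.81 ± 0.26 with PBS, and Il1r1 over Il6st -0.37 ± 0.41, -0.34 ± 0.55 and -0.58 ± 0.47 in the same order (SD, n = 4, 3 and 4). In both of these ratios the groups overlapped.

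**Figure D3:**
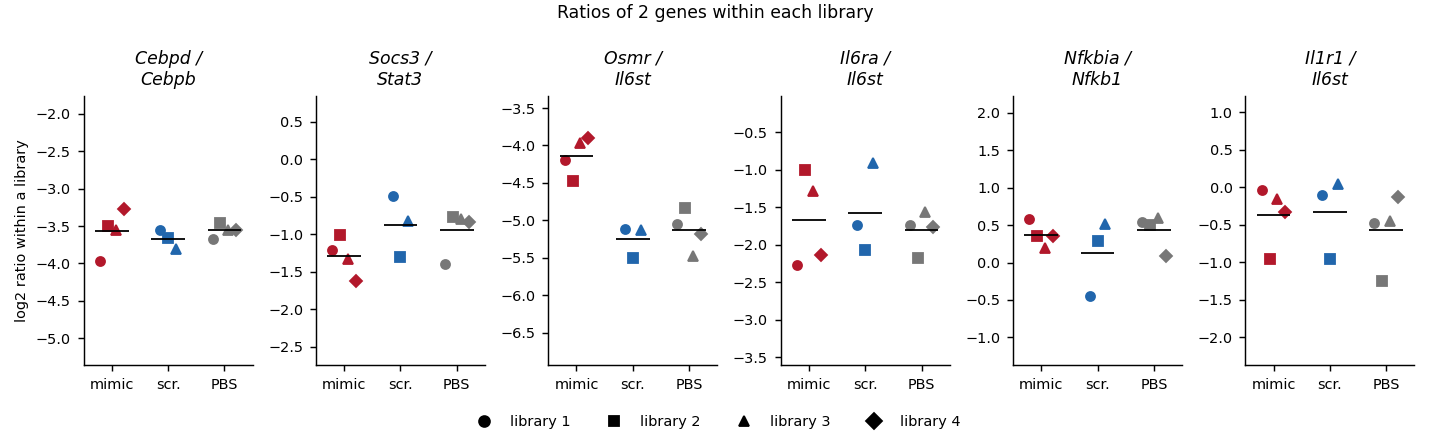
Log2 ratio of 2 genes within each library for 6 pairs, in the mimic, scramble (scr.) and PBS libraries; lines are group means, symbols mark library numbers, and all panels span the same range of log2 units. In Osmr over Il6st the mimic libraries, at -4.48 to -3.90, lay above the scramble libraries at -5.50 to -5.11 and the PBS libraries at -5.47 to -4.83, and the groups overlapped in the other 5 pairs.

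Of the transcription factors, Stat3 (ENSMUSG00000004040, chromosome 11, 100885098 to 100939540, minus strand), the main mediator of gp130 signals and a gene that STAT3 itself can raise, had 55.9, 39.7, 35.5 and 50.9 scaled CPM in the mimic libraries, against 38.3, 35.3 and 34.98 in the scramble libraries and 38.4, 36.9, 37.3 and 37.2 in the PBS libraries. The 7 libraries outside the mimic group lay within a narrow band, and mimic libraries 1 and 4 lay well above it while mimic library 3 lay inside it. The mean was 45.5 ± 9.50 with the mimic (SD, n = 4), 36.2 ± 1.84 with scramble (n = 3) and 37.4 ± 0.674 with PBS (n = 4). A log2 change of 0.30 ± 0.13 against scramble (SE; 0.02 to 0.58) did not pass after adjustment (limma adjusted p = 0.0976), nor did one of 0.25 ± 0.12 against PBS (-0.01 to 0.51; limma adjusted p = 0.122). Without mimic library 3 it passed, at 0.41 against scramble (limma adjusted p = 0.0181) and 0.36 against PBS (limma adjusted p = 0.0210). With mimic libraries 2 and 3 alone the change was 0.05 against scramble.

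Within the mimic group, Stat3 and Il6ra set libraries 1 and 4 apart from libraries 2 and 3, and so did the acute phase gene Saa1. Saa1 had 7489, 3008, 3626 and 6231 scaled CPM in mimic libraries 1 to 4, against 18.4, 17.8 and 19.5 in the scramble libraries and 27.5, 116, 33.7 and 26.3 in the PBS libraries. Reads of Saa1 and its near-identical neighbour Saa2 may be split or shared between them. Libraries 1 and 4 were highest of the mimic group for Saa1 and Stat3 and lowest for Il6ra, while Osmr was lowest in library 2 and highest in library 4. With 4 libraries no relation within the group was tested.

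**Figure D4:**
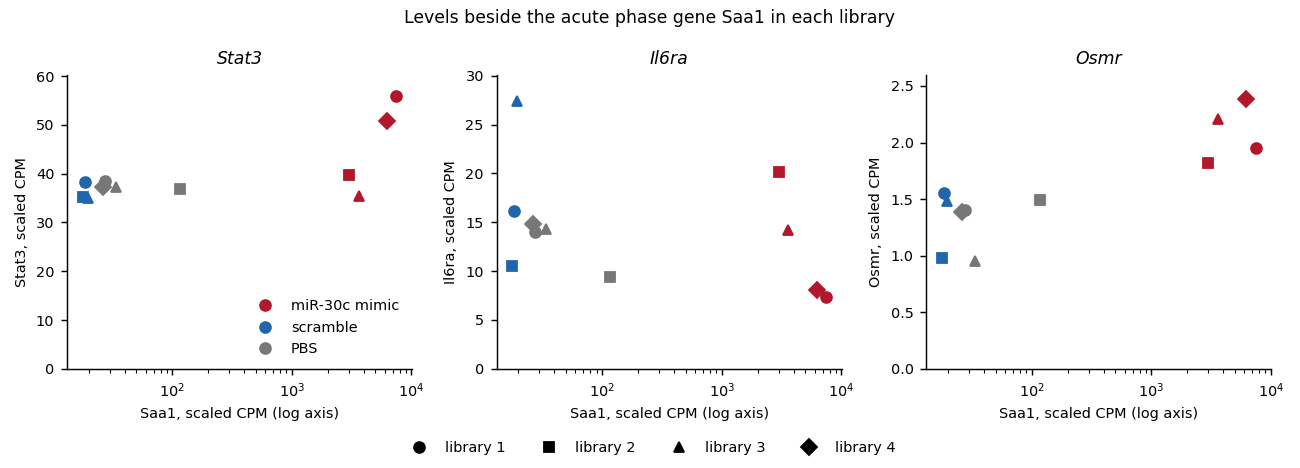
Levels of Stat3, Il6ra and Osmr (scaled CPM, linear axis from 0) beside the level of Saa1 (scaled CPM, log axis) in each library; colours mark the groups and symbols the library numbers. Mimic libraries 1 and 4, at 7489 and 6231 for Saa1, had 55.9 and 50.9 for Stat3 and 7.39 and 8.09 for Il6ra.

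Cebpb (ENSMUSG00000056501, chromosome 2, 167688915 to 167690418, plus strand), a C/EBP factor long known as a nuclear factor for IL-6 responses, was lower in the mimic group than in the scramble group. It stood at 88.9, 84.5, 76.3 and 72.4 scaled CPM in the mimic libraries, against 102, 98.9 and 99.3 in the scramble libraries and 77.7, 89.2, 78.8 and 69.2 in the PBS libraries. The scramble libraries were the high ones, above every mimic and PBS library, and the mimic and PBS libraries overlapped. On the log2 scale the difference was -0.31 ± 0.10 in mimic against scramble (SE; -0.53 to -0.10; limma adjusted p = 0.0286) and 0.03 ± 0.09 in mimic against PBS (-0.16 to 0.23; limma adjusted p = 0.792). In scramble against PBS it was 0.35 ± 0.10 (0.14 to 0.56) with a limma adjusted p of 0.9997, in a comparison where 4.72% of all genes had groups that did not overlap, made up of 2.33% higher and 2.39% lower. The call was lost without mimic library 3 or 4 or any of the 3 scramble libraries, with limma adjusted p from 0.0568 to 0.0888, and under library totals alone the sign turned, to 0.27.

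Cebpb overlaps the gene Tmem189 on the opposite strand by 908 bases. The values of both ran in parallel, with r = 0.966 over the 11 libraries and a ratio of Tmem189 to Cebpb between 0.673 and 0.773. The library kit keeps strand, but the strand setting of the authors' counting is not given in the sources used here, so the level and change of Cebpb are uncertain.

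Cebpd (ENSMUSG00000071637, chromosome 16, 15887286 to 15891031, plus strand), the C/EBP factor that is quickly raised in the acute phase of mice, had 5.69, 7.48, 6.48 and 7.51 scaled CPM in the mimic libraries, against 8.72, 7.79 and 7.10 in the scramble libraries and 6.09, 8.12, 6.72 and 5.87 in the PBS libraries. The groups overlapped. Its log2 change was -0.19 ± 0.12 (SE; -0.45 to 0.07; limma adjusted p = 0.237) against scramble and 0.02 ± 0.11 (-0.22 to 0.26; limma adjusted p = 0.909) against PBS. Cebpd shares 1808 bases with Spidr on the opposite strand, but the values of these 2 genes did not run in parallel (r = 0.129).

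Nfkb1 (ENSMUSG00000028163, chromosome 3, 135584655 to 135691547, minus strand) encodes the p50 subunit of NF-kB and its precursor. It had 10.5, 11.7, 9.49 and 12.4 scaled CPM in the mimic libraries, against 12.5, 10.1 and 10.2 in the scramble libraries and 10.1, 9.34, 9.56 and 11.3 in the PBS libraries. No group stood apart. The log2 change was 0.01 ± 0.11 (SE; -0.22 to 0.24; limma adjusted p = 0.962) against scramble and 0.11 ± 0.10 (-0.10 to 0.32; limma adjusted p = 0.392) against PBS.

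The feedback genes Socs3 and Nfkbia are textbook direct targets of STAT3 and NF-kB, and neither passed the test. Socs3 (ENSMUSG00000053113, chromosome 11, 117966079 to 117970047, minus strand) had 24.1, 19.8, 14.1 and 16.5 scaled CPM in the mimic libraries, against 27.3, 14.4 and 19.8 in the scramble libraries and 14.6, 21.7, 21.5 and 20.7 in the PBS libraries. The range of each group lay largely over the others. Its log2 change was -0.11 ± 0.22 (SE; -0.59 to 0.37; limma adjusted p = 0.722) against scramble and -0.08 ± 0.20 (-0.53 to 0.36; limma adjusted p = 0.773) against PBS. Socs3 over Stat3 averaged -1.29 ± 0.26 log2 units with the mimic (SD, n = 4), -0.87 ± 0.40 with scramble (n = 3) and -0.95 ± 0.30 with PBS (n = 4), with overlap.

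Nfkbia (ENSMUSG00000021025, chromosome 12, 55489410 to 55492647, minus strand) had 15.7, 14.9, 10.9 and 15.8 scaled CPM in the mimic libraries, against 9.22, 12.3 and 14.6 in the scramble libraries and 14.7, 13.2, 14.4 and 12.0 in the PBS libraries. The groups overlapped, with mimic library 3 low and scramble library 1 lowest. Its fitted log2 change was 0.24 ± 0.15 (SE; -0.09 to 0.57; limma adjusted p = 0.247) against scramble and 0.06 ± 0.14 (-0.25 to 0.37; limma adjusted p = 0.755) against PBS. Nfkbia over Nfkb1 averaged 0.37 ± 0.16 log2 units with the mimic (SD, n = 4), 0.12 ± 0.50 with scramble (n = 3) and 0.43 ± 0.23 with PBS (n = 4). Under the authors' scaling, a log2 rise larger than 0.57 lies outside the 95% intervals of both mimic comparisons for both feedback genes. This bound does not carry over to library totals alone, where the median of all genes moved up by 0.49 against scramble and by 0.51 against PBS.

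The promoters of these feedback genes are shown because each holds a match to the motif of the factor it is known to answer to. Both are RefSeq starts on GRCm38.p6, from 250 bases before to 50 bases after the start, given on the gene's strand, minus in both cases, with motif letters in capitals.
Socs3 promoter, chr11:117969317-117969616: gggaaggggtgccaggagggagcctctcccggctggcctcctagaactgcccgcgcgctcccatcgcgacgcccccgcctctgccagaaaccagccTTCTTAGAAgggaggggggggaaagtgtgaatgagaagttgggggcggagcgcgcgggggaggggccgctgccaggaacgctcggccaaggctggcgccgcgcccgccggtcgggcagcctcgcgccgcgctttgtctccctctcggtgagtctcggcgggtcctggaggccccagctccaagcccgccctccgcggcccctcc
Nfkbia promoter, chr12:55492598-55492897: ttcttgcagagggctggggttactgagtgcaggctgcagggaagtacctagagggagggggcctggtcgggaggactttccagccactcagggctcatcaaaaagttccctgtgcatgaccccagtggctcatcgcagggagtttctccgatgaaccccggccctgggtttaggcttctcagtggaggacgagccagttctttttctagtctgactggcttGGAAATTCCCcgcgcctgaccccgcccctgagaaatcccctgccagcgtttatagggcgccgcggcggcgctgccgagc
In the Socs3 promoter the capitals mark a STAT motif, TTCNNNGAA, at -154 from the start, and in the Nfkbia promoter a kappa B motif at -29. Both strands were searched, also for the C/EBP motif TTGCNNAA, and the 2 printed matches overlap no other match. Over 32851 promoters of the same length, 8.30% held the STAT motif, 8.46% the kappa B motif and 10.8% the C/EBP motif. Of the 10 genes 8 matched a promoter entry, and besides the 2 printed here 1 of them, Il1r1, held a match, of C/EBP at -133 from one start and of kappa B at -232 from another. Matching letters do not show that a factor was bound.

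Levels can be set against each other only per length, so scaled CPM were divided by kilobases of exon, with all transcripts of a gene merged. On that scale Cebpb was highest, with a mean over all 11 libraries of 56.6 per kilobase, higher than 96.9% of the 12008 genes with a known length. Its overlap with Tmem189 leaves this level and rank uncertain too. Nfkbia at 8.34, Socs3 at 6.74, Il1r1 at 5.28, Stat3 at 4.20 and Il6st at 3.91 followed, all below the range of Cebpb, and among these 5 each overlapped its neighbour in the order across libraries. Cebpd came next at 1.88, below the range of Il6st, and overlapped Il6ra at 1.65, which overlapped Nfkb1 at 0.883. Osmr came last at 0.132 per kilobase, from 0.0784 to 0.197 over the libraries, below the range of Nfkb1 and higher than 1.87% of genes.

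Some of the genes had close companions over the 11 libraries, given by Pearson's r of log2 values over the same genes and with no p, since the points share libraries and groups. Il6st ran most like Zbtb20 (r = 0.969), a transcriptional repressor of hepatocytes, and Rnf125 (r = 0.964), a ubiquitin ligase. Zbtb20 averaged 50.0 scaled CPM with the mimic, 114 with scramble and 89.9 with PBS, so it too was lowest under the mimic. Stat3 ran closely with Mad2l2 (r = 0.975) and Ethe1 (r = 0.974), an enzyme of mitochondrial sulfide breakdown. For Socs3 these were Abtb2 (r = 0.907) and the transcription factors Foxq1 (r = 0.877) and Onecut1 (r = 0.844), for Nfkbia Ube2g2 (r = 0.915), for Il1r1 C1galt1 (r = 0.897) and for Nfkb1 Ext1 (r = 0.934). Cebpb had Tmem189, its overlapping neighbour, as the first and nothing else above 0.800. Within the 10 genes, Il6ra and Stat3 had the strongest correlation, at r = -0.642.

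The surrounding pathway was described by lists of genes other than the 10, whose counts in mimic against scramble stand beside 17.3% of all genes higher and 14.7% lower. Of 24 listed IL-6 family ligands, receptors and JAK-STAT genes 19 were measured, and in mimic against scramble 4 were higher and 3 lower, with a median log2 change of 0.05, which is near the share among all genes in both directions. The ligand genes Il6, Il11, Lif and Osm and the inhibitor gene Socs1 were not analysed here. Lifr, the receptor chain of leukemia inhibitory factor that also pairs with gp130, averaged, in scaled CPM, 87.2 ± 14.4 with the mimic (SD, n = 4), 180.4 ± 15.0 with scramble (n = 3) and 169.6 ± 45.8 with PBS (n = 4), with a log2 change against scramble of -1.05 (limma adjusted p = 0.00341). Cntfr, the ciliary neurotrophic factor receptor, changed by -0.58, and Ptpn11, the phosphatase SHP2 recruited by gp130, by -0.34. Cntfr was near the floor, at means of 0.458 scaled CPM with the mimic, 1.18 with scramble and 0.894 with PBS. It may have a row in the gene table only through the scramble and PBS libraries. Clcf1, a cytokine ligand of Cntfr, was higher by 1.56 against scramble (limma adjusted p = 0.0233) and by 0.80 against PBS, where it did not pass (limma adjusted p = 0.156). Il11ra1, the IL-11 receptor chain that signals through gp130, was picked out after its value was seen. It was higher by 0.37 against scramble (limma adjusted p = 0.0385) and did not pass against PBS, at 0.28 (limma adjusted p = 0.0773). Among the receptor chains that work with gp130, Lifr and the barely detected Cntfr were thus lower against scramble, Osmr and Il11ra1 higher, and Il6ra did not pass. Ptpn11 stood at 0.23 under library totals alone. Under library totals alone 8 list genes were higher and 0 lower, and Lifr was at -0.47 and Cntfr at -0.36, neither past the threshold. The count of 4 higher was 0 without scramble library 1 or 2, 1 without mimic library 1 or 4 or scramble library 3, 2 without mimic library 3 or PBS library 1 or 3, and 0 with mimic libraries 2 and 3 alone.

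In the IL-1 receptor and MyD88 list 20 of 25 genes were measured, of which 8 were higher and 3 lower in mimic against scramble, with a median log2 change of 0.22. The genes Il1b, Il1r2, Il1rl1, Il18r1 and Nlrp3 were not analysed here. Irak3, a brake on MyD88 signalling that myeloid cells express, had 2.54, 2.27, 2.21 and 2.19 scaled CPM in the mimic libraries, against 0.489, 0.475 and 0.484 in the scramble libraries and 0.814, 0.633, 0.475 and 0.533 in the PBS libraries. Every mimic library had more Irak3 than any other library, with a log2 change of 1.15 ± 0.09 against scramble (SE; limma adjusted p = 1.13e-05). Il18bp, the secreted antagonist of IL-18, changed by 1.51, Pycard, the inflammasome adaptor, by 0.91, and Irak4, the kinase that starts the MyD88 cascade, by 0.49. Pycard averaged, in scaled CPM, 1.71 with the mimic, 0.441 with scramble and 0.461 with PBS. Irak3 and Pycard, so low outside the mimic group, may have a row in the gene table only through the mimic libraries. Their rise and their part in the count of 8 are therefore a description. Some further genes were picked out after their values were seen. Il1rn, the IL-1 receptor antagonist, had, in scaled CPM, 8.72 ± 4.62 with the mimic (SD, n = 4), 1.42 ± 0.329 with scramble (n = 3) and 2.05 ± 0.836 with PBS (n = 4), a log2 change of 1.88 against scramble (limma adjusted p = 0.00187). Il1rap, the accessory chain that IL-1 receptors need, was lower by 0.44 on the log2 scale against scramble, at 79.3 ± 3.90, 108 ± 2.50 and 97.0 ± 4.11 scaled CPM in the mimic, scramble and PBS groups (SD, n = 4, 3 and 4; limma adjusted p = 0.000940). Sigirr, an inhibitory receptor of this family, was higher by 0.66, and Map3k7, the kinase TAK1, lower by 0.43, as was Tab3, which binds that kinase, at -0.40. Of the 3 genes that were lower, under library totals alone Il1rap stood at 0.14 and Map3k7 at 0.13, and no gene of the list was called lower. Of the 11 genes of the list with a mean of 5 or more, 1 was higher and 3 lower. Their median log2 change was -0.15, beside -0.07 for all genes under that filter, so the sign of the list's median turned.

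The list of NF-kB subunits, inhibitors and the TNF arm had 24 of 27 genes measured, with 9 higher and 2 lower in mimic against scramble and a median log2 change of 0.13. Nfkbid, Traf1 and Tnf were not analysed here. Chuk, which encodes the kinase IKK-alpha, had 39.6, 41.6, 46.7 and 40.5 scaled CPM in the mimic libraries, against 69.6, 70.0 and 70.6 in the scramble libraries and 61.5, 56.4, 75.1 and 76.3 in the PBS libraries. The mimic libraries were all below the others, and the log2 change was -0.72 ± 0.11 against scramble (SE; limma adjusted p = 0.000636). Tnip1, a partner of the inhibitor A20, changed by 0.75, and Nfkbib, which encodes IkB-beta, by 0.53. Tnfaip3 and Nfkbie were also picked out after their values were seen. Tnfaip3, which encodes A20 itself, changed by 0.98 and Nfkbie, which encodes IkB-epsilon, by 0.74. Nfkbie averaged, in scaled CPM, 1.88 with the mimic, 0.713 with scramble and 0.962 with PBS. So low outside the mimic group, Nfkbie may have a row in the gene table only through the mimic libraries. Its rise and its part in the count of 9 are therefore a description. The same may hold for other low genes of this list. The others that were higher were Tnip2 at 0.35, Nfkb2 at 0.61, Tnfrsf1a at 0.48 and Birc3 at 0.25, and Cyld, a deubiquitinase that dampens NF-kB, had -0.22 and did not pass. Besides Chuk the other gene that was lower was Bcl3, an atypical IkB protein, at -0.41. Map3k14, the kinase NIK of the non-canonical NF-kB route, changed by 0.55. It averaged 1.83 scaled CPM with the mimic, 0.923 with scramble and 1.09 with PBS. Tnfaip3 averaged 2.72, 0.840 and 1.35 in the same order, and its mimic and PBS libraries overlapped. With mimic libraries 2 and 3 alone Map3k14 passed against scramble (limma adjusted p = 0.0125). Tnfaip3 (limma adjusted p = 0.092) and Nfkbie (limma adjusted p = 0.0629) did not pass there. The subunit gene Rela had a log2 change of -0.18 and Rel one of -0.17, and neither passed the test. Under library totals alone 14 genes of the list were higher and 0 lower, with Chuk at -0.15 and not past the threshold. The 2 lower became 1 without mimic library 2 or scramble library 1, and with mimic libraries 2 and 3 alone 4 genes were higher and 2 lower. Of the 13 with a mean of 5 or more, 3 were higher and 2 lower. Their median log2 change was -0.04, beside -0.07 for all genes under that filter, so the sign of the list's median turned.

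Among C/EBP, AP-1 and liver factors 11 of 12 listed genes were measured, and 0 were higher and 3 lower in mimic against scramble, with a median log2 change of -0.33. Cebpg, a C/EBP partner without its own activation domain, had, in scaled CPM, 14.5 ± 0.692 with the mimic (SD, n = 4), 21.2 ± 0.330 with scramble (n = 3) and 22.8 ± 2.36 with PBS (n = 4), a log2 change of -0.52 ± 0.08 against scramble (SE; limma adjusted p = 0.000863). Cebpz, whose symbol alone does not make it a C/EBP factor, changed by -0.32 and the AP-1 gene Fosl2 by -1.54. Fosl2 varied widely outside the mimic group, from 17.1 to 45.6 scaled CPM with scramble and from 12.2 to 45.9 with PBS. The mimic libraries ran from 7.40 to 13.2 and overlapped those of PBS, where the log2 change was -1.24 (limma adjusted p = 0.0265). With mimic libraries 2 and 3 alone Cebpz did not pass, at -0.23 (limma adjusted p = 0.115). Under library totals alone the median of the list was 0.21, Cebpg stood at 0.04 and Cebpz at 0.24, and Fosl2 was still lower, at -0.99 (limma adjusted p = 0.0244). Cebpa, the main C/EBP factor of resting hepatocytes, had a log2 change of -0.04 and did not pass.

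Against PBS, where 20% of all genes were higher and 17.1% lower, the IL-6 family list had 3 of 19 genes higher and 3 lower, no more than those shares. The 3 higher became 0 without mimic library 1 and 1 without mimic library 4 or PBS library 4. In the IL-1 list 7 of 20 were higher and 3 lower, with 6 lower when PBS library 2 was left out. The NF-kB list had 9 of 24 higher and 3 lower, with 5 higher without mimic library 4 or PBS library 3, and 5 lower without PBS library 2. Among the C/EBP, AP-1 and liver factors 0 of 11 were higher and 3 lower. Under library totals alone no gene of these 4 lists was lower against PBS, and 10, 11, 15 and 2 were higher. In scramble against PBS 0 genes of these lists passed with limma in either direction.

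The acute phase genes that these pathways are known to drive were a group of another size. Of 30 listed and measured, 23 were higher and 0 lower in mimic against scramble, with a median log2 change of 1.88, and 25 were higher and 0 lower against PBS, with a median of 1.90. Among them Saa1 changed by 7.92, Saa2 by 9.22, Saa3 by 8.12 and Lcn2, an iron-scavenging secreted protein, by 8.60 against scramble. The list stayed at 22 higher and 0 lower against scramble with mimic libraries 2 and 3 alone. Within the 10 upstream genes the largest change in that comparison was that of Il6ra, at -0.50, which did not pass, and the largest that passed was that of Il6st, at -0.43. These lists and the 10 genes were chosen with results of these data known, so the contrast is a description and no test of it was made.

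**Figure D5:**
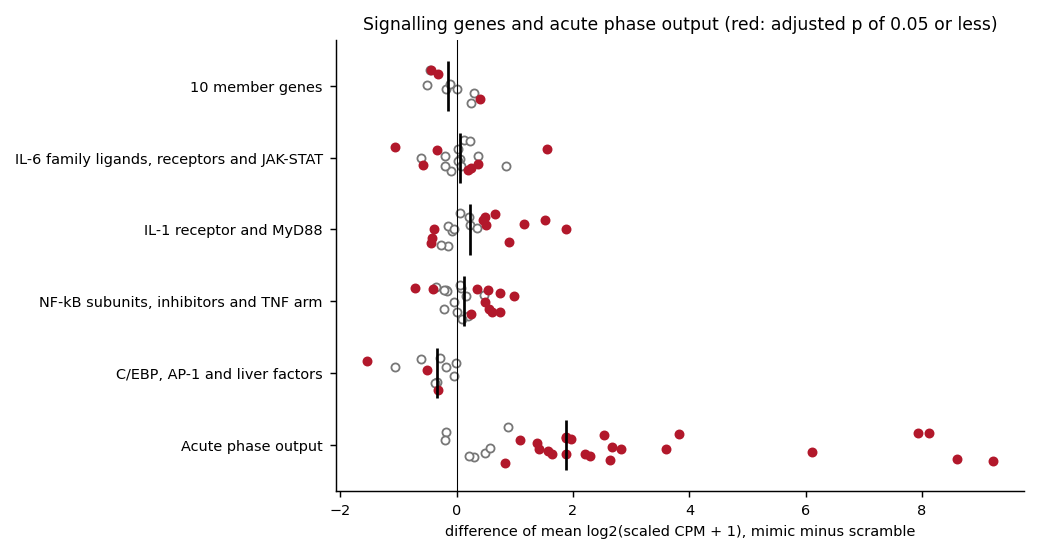
Log2 change in mimic minus scramble of each gene (points) in the 10 upstream genes, the 4 pathway lists and the acute phase list, on the log2(scaled CPM + 1) scale; red points passed an adjusted p of 0.05 with limma and black bars are list medians. The 10 genes lay between -0.50 and 0.41, with medians of 0.05, 0.22, 0.13 and -0.33 in the pathway lists and 1.88 in the acute phase list.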

How the data were processed

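Liver RNA of 11 libraries was sequenced with a stranded mRNA kit in paired-end mode, per the labels' protocols. The submitters' processing notes name the aligner Bowtie, the build mm10, edgeR 3.8.6 under R 3.1.2, and the utilities bedtools 2.17.0, SAMtools 0.1.19, FastQC 0.11.3 and bcl2fastq 1.8.4; the annotation and the strand setting of counting are not given in the sources used here. The deposited table holds a scaled signal, called scaled CPM here: each value was a whole multiple of a single step per library (tolerance 1e-06), from which the reads were inferred; few values were low enough to check that step apart from the fit to all values.

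Groups came from the titles. With limma 3.58.1 (R 4.3.3), log2(value + 1) was fitted with 3 group means over all 11 libraries and a mean-variance trend, with Benjamini-Hochberg adjustment over 13636 genes and a threshold of 0.05. The fit was tested on simulated data. Positions, exon lengths and 3′ UTRs are from GENCODE M21 (GRCm38). The members, the lists and the comparisons were chosen with earlier results of these data known. Named were all 10 members, up to 4 called genes per list by smallest p in mimic against scramble, and up to 3 genes per member by Pearson's r. Other genes were named outside this rule, and only some of them are marked as picked after their values were seen. Alternatives changed the pseudocount, the filter, the scaling or the variance model, added the replicate number as a block or library weights, fitted 2 groups only, or left out libraries.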

Additional observations from a re-analysis of the deposited data

Results flagged for a closer look

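Among 20 groups of 4 libraries tested for a library far from the others, one per gene in the mimic and PBS groups, 2 stood out, where chance alone gives about 1 in 20. PBS library 2 was low for Il6ra, at 9.40 scaled CPM, while the other 3 PBS libraries had 13.98, 14.3 and 14.8. PBS library 1 was low for Socs3, at 14.6 scaled CPM, while the other 3 had 21.7, 21.5 and 20.7. Without PBS library 2 the log2 change of Il6ra in mimic against PBS was -0.29 (limma adjusted p = 0.510), and without PBS library 1 that of Socs3 was -0.21 (limma adjusted p = 0.449). The groups of 3 scramble libraries were not tested in this way.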

How the results depend on the processing

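The setting that mattered most was the scaling. With library totals alone the log2 change against scramble turned to 0.14 for Il6st, 0.27 for Cebpb, 0.33 for Cebpd, 0.11 for Il1r1, 0.041 for Il6ra and 0.45 for Socs3, and that against PBS to 0.29 for Il6st, 0.49 for Il1r1, 0.40 for Il6ra and 0.50 for Socs3. Of all genes 5498 were then higher and 110 lower against scramble, and 6882 and 120 against PBS; of the 10 genes 3 were higher against scramble and 6 against PBS. With genes of a mean of at least 5 alone, fewer genes were tested (8238), 2816 were called against scramble and 3273 against PBS, and 1 of the 10 against PBS, since Osmr was filtered out. Mimic libraries 2 and 3 alone, a choice made after seeing the data, left fewer samples and gave 2548 and 2894 called genes, with 1 and 0 of the 10; the log2 change was then 0.015 for Il6ra and -0.044 for Nfkb1 against scramble, and 0.37 for Il6ra and -0.081 for Nfkbia against PBS. In scramble against PBS a fit of these 2 groups only called 5 genes. Median-of-ratios scaling turned Nfkb1 against scramble to -0.0015. With library weights Stat3 passed against scramble (limma adjusted p = 0.0156) and PBS (limma adjusted p = 0.0204). Where no construction is named, the cause was not tested.

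Same-numbered libraries of different groups did not all deviate together: their correlations ran from -0.277 to 0.258 over 10 pairs, those of number 3 from 0.121 to 0.258, and 3 of 11 libraries correlated best with their own number. With the replicate number as a block, 3808, 4584 and 0 genes were called in mimic against scramble, mimic against PBS and scramble against PBS, with 3, 2 and 0 of the 10. Against scramble the block called Il1r1 lower, at -0.56 (limma adjusted p = 0.0380), no longer called Osmr (limma adjusted p = 0.0588), and gave -0.045 for Nfkb1.

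Leaving out 1 library at a time, called genes ran from 2824 to 4904 in mimic against scramble, the lowest without scramble library 1, and from 0 to 1 in scramble against PBS, and of the 10 genes from 1 to 3 in each mimic comparison. Signs turned in these ranges: against PBS, Cebpb -0.026 to 0.10, Cebpd -0.033 to 0.10, Il1r1 -0.34 to 0.092, Il6ra -0.41 to 0.039 and Socs3 -0.21 to 0.035; against scramble, Nfkb1 -0.045 to 0.10 and Socs3 -0.33 to 0.11; in scramble against PBS, Osmr -0.062 to 0.13 and Socs3 -0.19 to 0.25. Il6st against PBS was lost without PBS library 4 (limma adjusted p = 0.0563). Over all single-gene values and settings 534 kept their sign and side of the threshold, 38 changed sign, and with the same sign 12 came to pass the threshold and 13 no longer passed it. Planned count tests with edgeR and DESeq2 were not run: in 8 of 11 libraries fewer than 100 values stood at 20 reads or less, too few to check the recovered reads on low values, so those reads served for depth and library totals only. Depth limited Osmr most, with 64 to 209 reads per library.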
